A study of Mus musculus with 2 samples.

Results

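The interferon regulatory factors (IRFs), a family of transcription factors, were examined in mammary basal cells of mice depleted of macrophages. The members were the genes *Irf1*, *Irf2*, *Irf3*, *Irf4*, *Irf5*, *Irf7*, *Irf8* and *Irf9*, taken by name from the deposited count table, which made 8 of 49492 genes. All 8 had at least 20 reads over both libraries and were among the 17356 genes compared. Basal cells were sorted from mammary glands of adult wild-type (WT) female mice as cells positive for CD24 and high for CD29, after cells carrying CD45, CD31 or TER119 were gated out. One group of mice received clodronate liposomes (CL) by repeated intraperitoneal injection, which kill the macrophages that ingest them. The control group is labelled as untreated, while the series' design text names saline. Both groups are labelled day 7 and are called CL and Ctrl (CL basal and Ctrl basal in the plots). Each group was 1 library, so no difference given here has a replicate check, no test between the conditions was possible, and whether a library pooled several mice was not given in the sources used here.

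IRFs share an N-terminal DNA-binding domain with conserved tryptophans and bind GAAA repeats, the core of the interferon-stimulated response element (ISRE). IRF1 and IRF2 bind the same sites, IRF1 mainly as an activator that interferon gamma induces, and IRF2 mainly as its antagonist. IRF3 and IRF7 are phosphorylated after viral nucleic acids are sensed and switch on the type I interferon genes. IRF9 is the DNA-binding subunit of the complex ISGF3, which holds STAT2 and carries the type I interferon signal to the nucleus. IRF4, IRF5 and IRF8 are known chiefly from leukocytes.

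The CL library held 38962512 reads over annotated exons and the Ctrl library 37846008. Among 12 basal markers, such as *Krt14* and *Myh11*, 0 were past 1.5-fold and their summed level was 21237 CPM (counts scaled to library size, not length) in CL and 20244 in Ctrl. The 12 luminal markers, such as *Krt8* and *Krt18*, summed to 3166 and 5000 CPM, were all lower in CL, and had a median log2 fold change of -0.78. Past 1.5-fold, 9 of them were lower and 0 higher. Over all compared genes 11.7% were lower and 6.34% higher by that much, and 8977 of 17356 were below 0. In a bulk library fewer cells of a type and less RNA per cell cannot be told apart. Of the gene counts from 1 to 20, even numbers made up 68.7% in CL and 67.9% in Ctrl, so both mates of a pair may have been counted. The 95% intervals cover counting error only, since reads without molecular identifiers are not independent molecules, and intervals for halved counts are added where they change what is said.

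*Irf1* had the highest level of the 8 members per length of annotated exon in both libraries, and *Irf4* the lowest. Levels are given as RPKM, reads per kilobase of exon scaled to library size. The length counts all annotated exonic bases of a gene, not those of the transcripts present. The order of genes therefore depends on these lengths too, which the intervals do not cover. In Ctrl the order was *Irf1* with 22.0, *Irf2* with 10.6, *Irf5* with 7.82, *Irf3* with 6.44, *Irf9* with 6.21, *Irf7* with 2.77, *Irf8* with 2.37 and *Irf4* with 0.415 RPKM. In this order *Irf3* and *Irf9*, and also *Irf7* and *Irf8*, had overlapping exact Poisson intervals and could not be ranked. In CL the order was *Irf1* with 29.3, *Irf2* with 11.3, *Irf9* with 9.10, *Irf5* with 7.67, *Irf3* with 5.53, *Irf7* with 3.93, *Irf8* with 2.44 and *Irf4* with 0.370 RPKM, and no neighbours overlapped. At these lengths *Irf9* thus lay below *Irf5* in Ctrl and above it in CL. *Irf9* also lay above *Irf3* in CL, while that pair could not be ranked in Ctrl. *Irf1* made 37.5% of the summed level of the 8 members in Ctrl and 42.1% in CL. The summed level of the 8 members was 58.6 RPKM in Ctrl and 69.6 in CL, a ratio of 1.19.

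**Figure D1:**
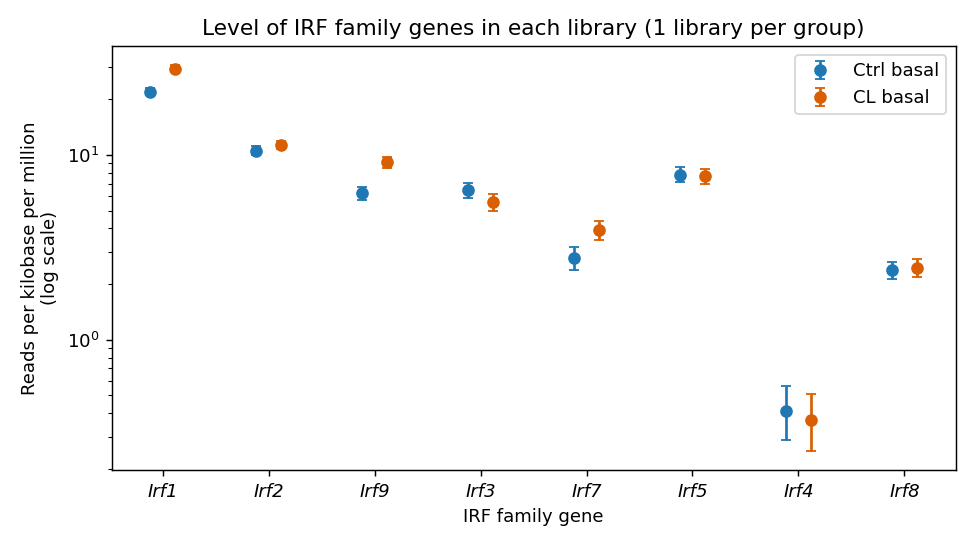
Level of each IRF member in RPKM (y axis, log scale) in the Ctrl basal library and the CL basal library, with bars for the 95% exact Poisson interval at halved counts. *Irf1* has the highest level in both libraries, and *Irf1*, *Irf7* and *Irf9* are higher in CL basal with intervals that do not overlap.

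The members differed little to moderately between the libraries. *Irf9*, *Irf7* and *Irf1* were higher in CL by 1.47-, 1.42- and 1.33-fold, *Irf3* was slightly lower (0.860-fold), and *Irf2*, *Irf4*, *Irf5* and *Irf8* lay between 0.894- and 1.07-fold. Past 1.5-fold, the threshold used, were 0 of the 8 members in either direction, beside 6.34% of all compared genes that were higher by that much and 11.7% that were lower. At 1.2-fold, a threshold chosen after the values were seen, 3 of the 8 were higher and 0 lower, beside 20.2% and 25.9% of all compared genes. Among genes of like read counts, 2 of the 6 members with 1000 to under 10000 reads were higher at 1.2-fold, beside 14.7% of such genes, and 1 of the 2 members with 100 to under 1000 reads, beside 18.8%. By an interval that excludes equal levels, 4 were higher (*Irf1*, *Irf2*, *Irf7* and *Irf9*) and 1 lower (*Irf3*), beside 25.3% of all compared genes in each direction. With halved counts 3 were higher and 1 lower, beside 18.7% and 17.4%. The median log2 fold change of the 8 was 0.07, against -0.01 over all compared genes.

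**Figure D2:**
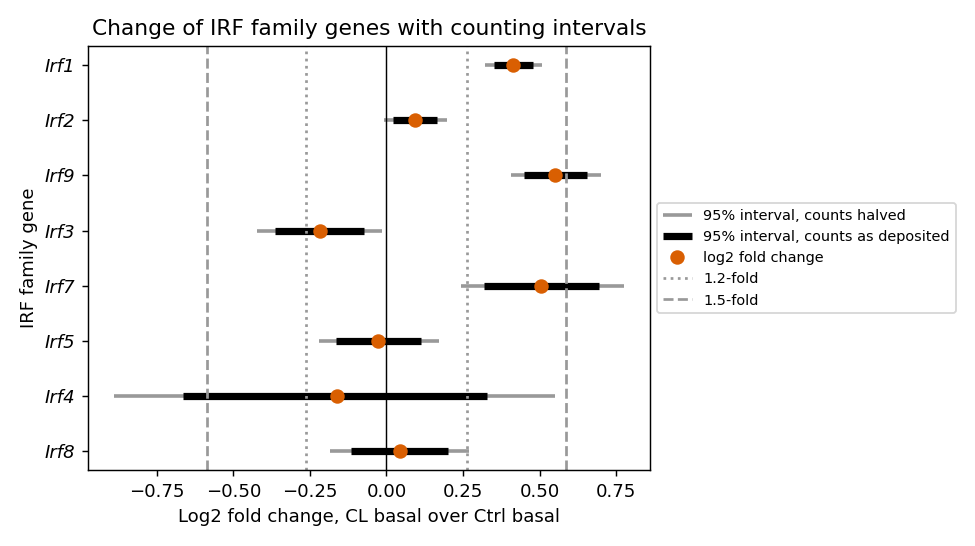
Log2 fold change of CL basal over Ctrl basal (x axis) for each IRF member, with 95% exact binomial intervals at counts as deposited (black) and at halved counts (grey). *Irf1*, *Irf7* and *Irf9* lie between the 1.2-fold and 1.5-fold lines on the higher side, and the intervals of *Irf4*, *Irf5* and *Irf8* span 0.

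*Irf1* and *Irf2*, the activator and the antagonist of the same sites, differed by unlike amounts. *Irf1* (chromosome 11, 53770014 to 53778374, GRCm38) had 4477 reads in CL and 3352 in Ctrl. This is a log2 fold change of 0.41, with a 95% exact binomial interval of 0.35 to 0.48. *Irf2* (chromosome 8, 46739732 to 46847458) had 3201 reads in CL and 2995 in Ctrl, a log2 fold change of 0.09 (0.02 to 0.17). The 2 libraries were thus nearly level for *Irf2*, and with halved counts its interval included 0 (-0.01 to 0.20). A ratio of reads within a library does not depend on scaling between libraries. The reads of *Irf1* per read of *Irf2* were 1.40 in CL and 1.12 in Ctrl, a log2 change of 0.32 (large-sample 95% interval 0.22 to 0.42, or 0.18 to 0.46 with halved counts). *Gm17334*, which has 907 exonic bases on the other strand and shares 135 of the 3976 exonic bases of *Irf1*, had 929 and 610 reads (log2 fold change 0.60). The use of strand in counting was not stated, so reads of this pair cannot be told apart where they overlap. The corepressors that bind IRF2 were described with it. *Irf2bp1* had 1832 and 1340 reads (log2 fold change 0.45, interval 0.35 to 0.55) and *Irf2bp2* 2782 and 2113 (0.39, 0.31 to 0.48), while *Irf2bpl* had 1590 and 1776 (-0.16, -0.26 to -0.06).

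*Irf9* showed the largest difference of the 8 members with the main scaling. It could not be ranked above *Irf7*, whose interval (0.32 to 0.69) overlapped its own. With the trend on mean expression removed, *Irf7* stood at 0.54 and *Irf9* at 0.52. *Irf9* (chromosome 14, 55603571 to 55610030) had 1885 reads in CL and 1283 in Ctrl, a log2 fold change of 0.55 (0.45 to 0.66). Only with scaling by the upper quartile did it pass 1.5-fold, at 0.59. Among the 5592 genes with 1000 to under 10000 reads, 1.57% had a log2 fold change at least as high. Its ISGF3 partner *Stat2* had 1001 and 740 reads, a log2 fold change of 0.43 (0.29 to 0.57). Both were thus higher in CL, and the interval of the change in their ratio included 0. The ratio of *Irf9* to *Stat2* reads was 1.88 in CL and 1.73 in Ctrl, a log2 change of 0.12 (-0.05 to 0.29). *Irf9* shares 123 exonic bases with *Rnf31* on the same strand, which had 744 and 653 reads (log2 fold change 0.18).

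The related factors *Irf3* and *Irf7* differed in opposite directions. *Irf7* (chromosome 7, 141262706 to 141266481) had 571 reads in CL and 401 in Ctrl, a log2 fold change of 0.50 (0.32 to 0.69). Of the 6410 genes with 100 to under 1000 reads, 7.27% were at least as high. *Irf3* (chromosome 7, 44997648 to 45002848) had 732 reads in CL and 850 in Ctrl, a log2 fold change of -0.22 (-0.36 to -0.07). Of the genes with 1000 to under 10000 reads, 16.1% were at least as low, so *Irf3* lay well inside the spread of genes with like read counts. *Irf7* had 0.780 reads per read of *Irf3* in CL and 0.472 in Ctrl, a log2 change of 0.73 (0.49 to 0.96, or 0.40 to 1.05 with halved counts). Of the 5 ratios computed, this one and that of *Irf9* to *Irf3*, at 0.77 (0.60 to 0.95), were the furthest apart. Their intervals overlapped, so these ratios could not be ordered, and both have *Irf3* as divisor. The intervals leave out the spread between genes. Log2 fold changes had an SD of 0.46 among genes with 100 to under 1000 reads and 0.28 among those with 1000 to under 10000. *Irf3* shares 88 exonic bases with *Bcl2l12* on the other strand, which had 121 and 180 reads (-0.57), and *Irf7* shares 45 with *Phrf1*, which had 10450 and 9676 (0.11).

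**Figure D3:**
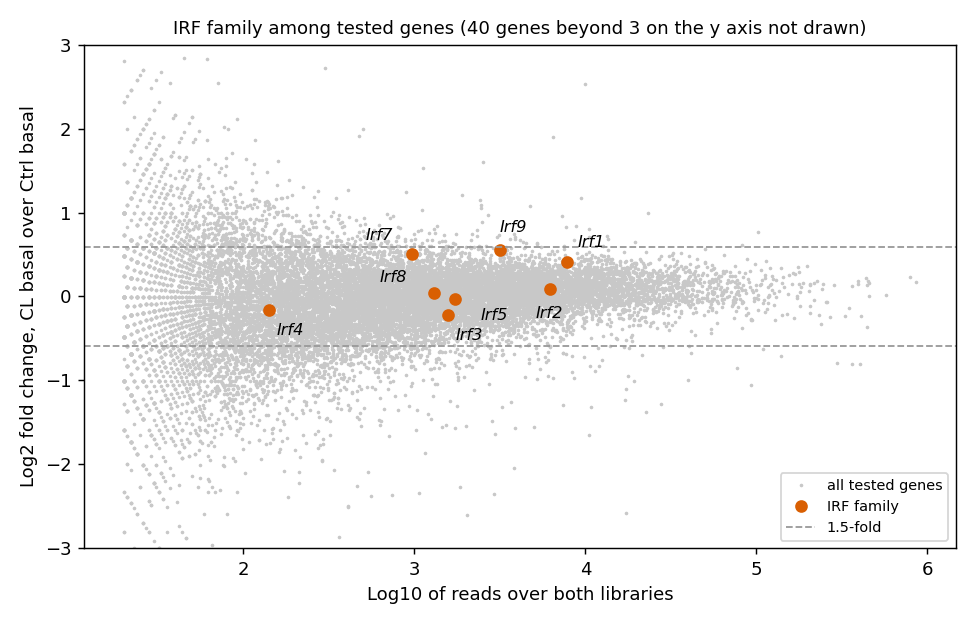
Log2 fold change of CL basal over Ctrl basal (y axis) against the log10 of reads over both libraries (x axis) for the 17356 compared genes (grey) and the 8 IRF members (orange), with genes beyond 3 on the y axis not drawn. *Irf9*, *Irf7* and *Irf1* lie on the upper side of genes with like read counts, and the other 5 lie within the dense middle.

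Of the factors known from leukocytes, *Irf5* and *Irf8* were nearly level, and *Irf4* had too few reads to tell. *Irf5* (chromosome 6, 29526625 to 29541871), which acts after Toll-like receptors, had 857 reads in CL and 871 in Ctrl, a log2 fold change of -0.03 (-0.16 to 0.11). Of its 2905 exonic bases 411 are shared with *Tnpo3* on the other strand, which had 2911 and 2664 reads (log2 fold change 0.12), so *Irf5* is the least certain member in this respect. *Irf8* (chromosome 8, 120736358 to 120756694), which directs monocyte and dendritic cell fates, had 663 and 642 reads, a log2 fold change of 0.04 (-0.12 to 0.20). *Irf4* (chromosome 13, 30749226 to 30766927), which acts in lymphocytes and plasma cells, had 67 and 75 reads. Its log2 fold change of -0.16 had an interval of -0.66 to 0.33, the widest of the members, so no difference was detectable at this depth.

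Reads of leukocyte genes were found in both sorted libraries. *Ptprc*, which encodes the CD45 used to gate leukocytes out, had 521 reads in CL and 537 in Ctrl, or 0.740 and 0.764 RPKM. These levels were below those of *Irf8*, but the annotated exon length of *Ptprc* is much the longer, and most of the gap comes from it. In reads the genes lay closer, with 663 in CL and 642 in Ctrl for *Irf8*. The 10 pan-leukocyte genes summed to 41.7 CPM in CL and 48.1 in Ctrl, led by *Arhgdib* (423 and 556 reads) and *Ptprc*. The 15 macrophage genes summed to 29.7 and 39.1 CPM, of which *Cd14* (468 and 748 reads) made up 12.2 and 19.5 CPM. The difference between these sums thus rests largely on *Cd14*. It was followed by *Cd68* (185 and 233 reads). Next came *Lyz2* (118 and 138 reads), *Mrc1* (86 and 168), *Csf1r* (89 and 64), *Mpeg1* (88 and 28) and *Itgam* (52 and 55). The remaining 8 macrophage genes had at most 16 reads in either library, among them *Adgre1* (10 and 7), *C1qc* (6 and 16), *Fcgr1* (4 and 0) and *Ms4a7* (0 and 2). Of the 9 macrophage genes compared, 7 were below 0, with a median log2 fold change of -0.33. Over all compared genes 8977 of 17356 were below 0, with a median of -0.01. The 12 dendritic cell genes summed to 22.6 and 26.1 CPM, of which *Zbtb46* (596 and 716 reads) made up 15.5 and 18.7 CPM. It was followed by *Clec9a* (75 and 92 reads), with 2 and 0 reads of *Cd209a* and of *Cd207*. The 12 B and plasma cell genes summed to 134.4 and 133.9 CPM, of which *Xbp1* (4495 and 4527 reads), a factor that many secretory cell types use, made up 116.9 and 118.0 CPM, followed by *Prdm1* (261 and 217 reads), with 0 reads of *Tnfrsf17* in both. The 12 T and NK cell genes summed to 13.8 and 12.4 CPM, led by *Lck* (229 and 207 reads) and *Cd2* (127 and 106 reads), with 0 reads of *Ncr1* and *Klrb1c* in both. Past 1.5-fold, 1 of the 9 compared macrophage genes was higher and 3 were lower, as were 2 and 2 of 8 dendritic cell genes, 2 and 0 of 10 B and plasma cell genes, 0 and 0 of 9 T and NK cell genes and 0 and 1 of 9 pan-leukocyte genes. Over all compared genes 6.34% were higher and 11.7% lower by that much, and the log2 fold changes of the 3849 genes with 20 to under 100 reads had an SD of 0.92. The part of such cells, and of the lower luminal markers, in the values of the members was not tested.

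IRF4 and IRF8 bind many DNA sites together with partner proteins. Of the transcripts of 8 listed partners, 1 was past 1.5-fold on the higher side and 1 on the lower, beside 6.34% and 11.7% of all compared genes, with a median log2 fold change of 0.02. *Ets1*, an Ets factor, had the most reads (6816 and 6196, 0.13, 0.08 to 0.18). *Spi1*, which encodes the myeloid Ets factor PU.1, had 12 reads in CL and 22 in Ctrl (log2 fold change -0.78, -2.03 to 0.20). *Batf2*, an AP-1 type partner, had 139 and 90 reads (0.61, 0.23 to 1.02), and *Batf* had 98 and 147 (-0.58, -0.97 to -0.21).

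Promoter windows of 250 bases before to 50 after the start site were taken from RefSeq (build GRCm38.p6) for the 8 members that had an entry, with 11 windows in all. They were searched on both strands for the ISRE core (GAAA, any 2 bases, GAAA), the STAT site GAS (TTCNNNGAA), the composite of an Ets and an IRF site (GGAA, any 2 bases, GAAA) and a kB-type site (GGGA, any 4 bases, CC). The share of all 32851 windows with a match was 3.44% for the ISRE, 8.30% for the GAS, 2.72% for the composite and 20.7% for the kB-type site. The 250 bases before the start are printed for the 3 members with an ISRE or GAS match, because *Irf1* differed between the libraries while *Irf2* and *Irf8* hardly did. Capitals mark the matches to the GAS and, in *Irf2*, also the ISRE. In the *Irf2* stretch the first 21 bases, which hold the ISRE match, lie in an annotated exon of *Gm16675*. Its last 13 bases lie in an annotated exon of an *Irf2* transcript.
Irf1 (GRCm38.p6, chr11:53769764-53770013, + strand): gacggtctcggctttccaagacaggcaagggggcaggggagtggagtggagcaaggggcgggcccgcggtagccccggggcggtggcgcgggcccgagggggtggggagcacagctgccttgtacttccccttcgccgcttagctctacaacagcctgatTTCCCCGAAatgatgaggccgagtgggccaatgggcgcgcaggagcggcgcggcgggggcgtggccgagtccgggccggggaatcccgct
Irf2 (GRCm38.p6, chr8:46739495-46739744, + strand): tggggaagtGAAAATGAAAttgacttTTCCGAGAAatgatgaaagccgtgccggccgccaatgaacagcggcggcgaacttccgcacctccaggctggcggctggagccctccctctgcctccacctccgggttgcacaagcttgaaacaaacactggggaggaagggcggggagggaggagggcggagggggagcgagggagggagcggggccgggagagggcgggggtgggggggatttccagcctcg
Irf8 (GRCm38.p6, chr8:120736108-120736357, + strand): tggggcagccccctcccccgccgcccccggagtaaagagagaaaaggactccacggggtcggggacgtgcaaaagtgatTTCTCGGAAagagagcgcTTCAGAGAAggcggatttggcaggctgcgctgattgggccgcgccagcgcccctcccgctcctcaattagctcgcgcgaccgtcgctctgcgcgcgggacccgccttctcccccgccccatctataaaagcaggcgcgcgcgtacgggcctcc

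Counted from the start site as 0, the GAS match TTCCCCGAA of *Irf1* began at -90. *Irf2* held the GAS match TTCCGAGAA at -224 and the ISRE match GAAAATGAAA at -241, which overlaps a composite match, GGAAGTGAAA at -247. *Irf8* held a pair of GAS matches, TTCTCGGAA at -171 and TTCAGAGAA at -153. The windows of *Irf7* and *Irf9*, which were higher in CL, and those of *Irf3* and *Irf5* held 0 matches to the 4 motifs. Matches were thus found both in a member that was higher and in members that were nearly level. A kB-type match was found in *Irf1* (GGGGAATCCC at -13), *Irf4* (GGGACAGCCC at -182) and *Irf8* (GGGACCCGCC at -58 and GGGCGGTCCC at 10). The *Irf1* and *Irf2* windows also shared 2 runs of 10 bases, noticed after the sequences were read. GGGGGTGGGG (-153 in *Irf1* and -26 in *Irf2*) stands in 1149 of the 32851 windows on either strand (3.5%). GAAATGATGA, which starts in the last bases of a GAS match in both (-84 and -218), stands in 29 (0.0883%).

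Genes that act above the IRFs are read beside all compared genes, of which 6.34% were higher and 11.7% lower by 1.5-fold, 8379 of 17356 were above 0 and the median log2 fold change was -0.01. Of 15 interferon ligand and receptor genes, 7 ligands had 0 reads in both libraries, where the limit that a count of 0 allows (3 reads) was 0.0780 CPM in CL and 0.0782 in Ctrl. *Ifng* had 2 reads in CL and 4 in Ctrl, and *Ifnb1*, a gene that IRF3 and IRF7 switch on, had 0 and 8. The 6 receptor genes had enough reads, and 0 of them were past 1.5-fold. *Ifngr1*, a chain of the interferon gamma receptor, had 1899 and 1800 reads (log2 fold change 0.07, -0.02 to 0.17), and *Ifnar2*, of the type I receptor, 1382 and 1351 (0.03, -0.08 to 0.14). Of 10 JAK-STAT genes 0 were past 1.5-fold, 9 were above 0 and the median was 0.17. *Socs3*, a feedback inhibitor, had the most reads (23516 and 16755, 0.49, 0.46 to 0.51), followed by *Stat3* (20982 and 17069, 0.29, 0.27 to 0.32). Of 21 sensors and kinases above IRF3, IRF5 and IRF7, 19 had enough reads, 0 were higher and 1 was lower by 1.5-fold, with a median of 0.11. That gene was *Tlr3*, a receptor for double-stranded RNA, with 53 reads in CL and 110 in Ctrl (-1.03, -1.56 to -0.57). The kinases *Tbk1* (1888 and 1745 reads, 0.11, 0.02 to 0.21) and *Ikbkb* (1965 and 1934 reads, 0.02, -0.07 to 0.11) lay near 0.

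Genes associated with IRF1 and interferon gamma were mostly higher in CL. Of the 25 listed, 24 had enough reads, and 9 of these were higher and 1 was lower by 1.5-fold, beside 6.34% and 11.7% of all compared genes. Their median log2 fold change was 0.39, against -0.01 for all compared genes, and 23 of 24 were above 0. This list, like the others, was chosen with earlier results of these data known, so these counts describe it and do not test it. *Tap1*, which carries peptides to MHC class I, had 1330 reads in CL and 574 in Ctrl (1.21, 1.07 to 1.35). *Nlrc5*, the activator of MHC class I genes, had 1646 and 793 reads (1.05, 0.93 to 1.17). The guanylate-binding protein genes *Gbp2* (6534 and 2899 reads, 1.17, 1.11 to 1.23) and *Gbp7* (1678 and 757 reads, 1.14, 1.02 to 1.27) were the other 2 of the 4 furthest apart. The MHC class I heavy chains *H2-K1* (64374 and 37831 reads, 0.76) and *H2-D1* (29775 and 20006 reads, 0.57) had the most reads. Since *H2-K1*, *H2-D1* and the Gbp genes have close relatives, reads may have been split among copies. The gene that was lower was *Nos2*, with 34 and 55 reads (-0.67, -1.36 to -0.05, or -1.64 to 0.26 with halved counts).

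Of 30 genes listed as ISGF3 type targets, all with enough reads, 5 were higher and 3 lower by 1.5-fold, beside 6.34% and 11.7% of all compared genes. Their median log2 fold change was 0.20, and 21 were above 0. Whether ISGF3 acts on them in these cells was not tested. Among the lower genes, *Oas3* had only 10 reads in CL and 16 in Ctrl, with an interval of -1.98 to 0.55. *Oasl2* (841 reads in CL and 289 in Ctrl, 1.53, 1.34 to 1.74) and *Oas1a* (102 and 35 reads, 1.49, 0.97 to 2.14), of the oligoadenylate synthetase family, were the furthest above. *Oasl1* (104 and 211 reads, -1.01, -1.38 to -0.68) and *Rsad2*, which encodes the antiviral enzyme viperin (374 and 746 reads, with an interval of -1.18 to -0.82), were the furthest below. *Eif2ak2*, the kinase PKR, had 2397 and 1430 reads (0.74, 0.65 to 0.84) and *Parp14* 2796 and 1985 (0.49, 0.41 to 0.57). *Oasl2* and *Oasl1*, of one gene family, thus stood on opposite sides.

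**Figure D4:**
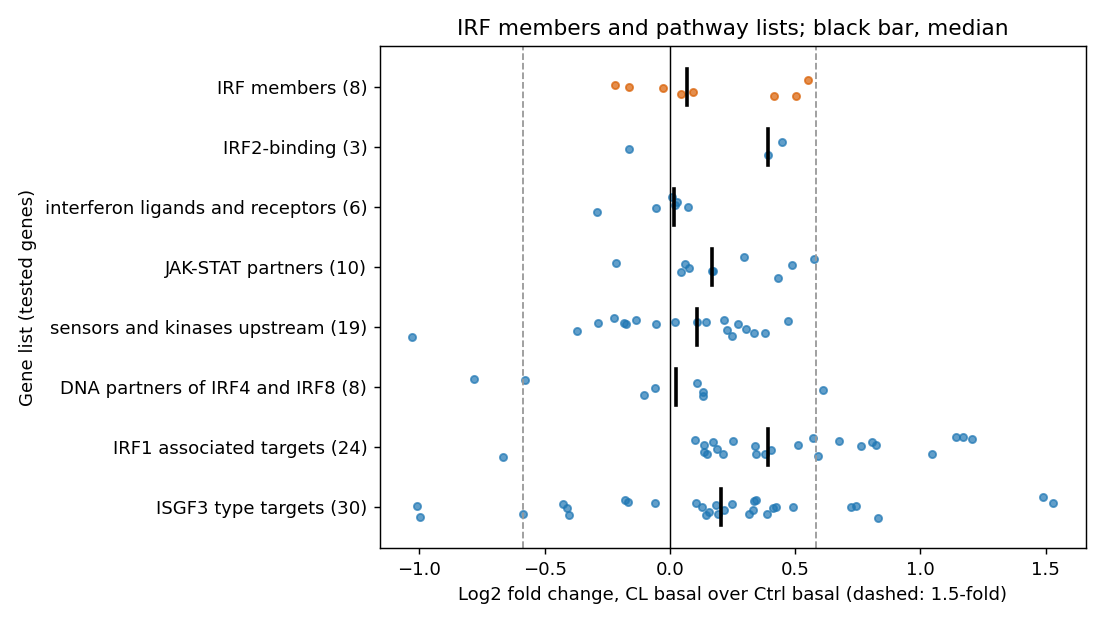
Log2 fold change of CL basal over Ctrl basal (x axis) for the 8 IRF members (orange) and the compared genes of each pathway list (blue), with a black bar at each median and dashed lines at 1.5-fold. The genes associated with IRF1 lie mostly above 0 (median 0.39), and the ISGF3 targets spread from -1.01 to 1.53.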

How the data were processed

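RNA of sorted basal cells was made into libraries with a SMARTER mRNA kit, per the labels, and sequenced on a HiSeq X 10 instrument. The deposited values were raw counts of reads per gene, laid out as featureCounts writes them, and the authors had not normalized them. The submitters' processing notes name the builds GRCm38 and mm10. The aligner, annotation release and use of strand are not given in the sources used here. The deposited exon length was used for levels per length. An unnamed column of ratios and a column of their log2, both comparing the groups, were not used.

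Libraries were scaled with the TMM factors of edgeR 4.0.16, run in R 4.3.3. Log2 fold changes used a prior count of 2, over genes with at least 20 reads in all. For intervals, the Clopper-Pearson limits on the share of reads that CL contributed were turned into log2 ratios (scipy 1.17.1). Those of ratios between genes came from the log odds ratio. With 1 library per group no test of the conditions was run, and a gene was counted as past a threshold by its fold alone. The calculation was tested on simulated data.

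The members, lists and thresholds were chosen with earlier results of these data known. All 8 members were named. Of each pathway list, the text names up to 4 genes of at least 100 reads past 1.5-fold and the 2 with the most reads. Of each cell type list it names the 2 with the most reads, *Ptprc* and markers at 0. Genes named beyond that rule (the genes overlapping members, *Stat2*, *Irf2bp1*, *Ifng*, *Ifnb1*, *Spi1*, *Nos2*, *Lyz2*, *Mrc1*, *Csf1r*, *Mpeg1*, *Itgam*, *C1qc*, *Adgre1*, *Fcgr1*, *Ms4a7*, *Cd209a* and *Cd207*) were picked after their values were seen. The alternatives were other scalings (total counts, DESeq2 1.42.0 size factors, upper quartile), prior counts of 0.5 and 5, thinning of the deeper library, halved counts, removal of the trend on mean expression, other read minimums, other thresholds and protein-coding genes alone. Identity between the IRF proteins was planned and is not analysed here. Some genes are not reported here, and they were left out of the lists, levels and plots.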

Additional observations from a re-analysis of the deposited data

How the results depend on the processing

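For the 8 members, 63 of 64 values under other scalings, prior counts, thinning, halved counts and removal of the trend on mean expression stayed within the 95% interval, and the value for *Irf1* without that trend was 0.35, where genes with more reads had higher medians. *Irf5*, whose interval spans 0, ran from -0.07 to 0.01. *Irf9* ran from 0.51 to 0.59, so that 1 member was past 1.5-fold with the upper quartile. At 1.2-fold 3 members were higher, and 4 were higher and 1 lower by an interval that excludes equal levels (3 and 1 with halved counts). Both rules were chosen after seeing the data.

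Over all genes, 1100 were higher and 2029 lower by 1.5-fold. These counts were 3311 and 5315 without a read minimum, 398 and 937 with at least 100 reads, 360 and 830 at 2-fold, 3507 and 4496 at 1.2-fold and 4388 and 4388 by the interval. Among protein-coding genes 664 were higher and 1509 lower. Without the trend on mean expression the split was 1421 and 1637, a share of lower genes of 53.5% against 64.8%. The IRF1-associated list had a median of 0.35 to 0.46 and 8 to 10 genes higher by 1.5-fold, and the ISGF3 targets a median of 0.17 to 0.25 with 5, over the other scalings, prior counts and read minimums, thinning, halved counts and removal of the trend. At 1.2-fold 15 of the IRF1-associated genes were higher and 1 lower, and 13 of the ISGF3 targets higher and 6 lower, beside 20.2% and 25.9% of all compared genes. No paired analysis was possible because only 1 library stood for either condition. Depth limits *Irf4* most.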
